A study of Mus musculus with 9 samples.

Results

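The genes described here are 6 genes of sodium transport, and they were followed in RNA of whole newborn mouse lenses. *Scn11a* and *Scn8a* encode pore-forming alpha subunits of voltage-gated sodium channels (Nav1.9 and Nav1.6), *Scn3b* encodes an accessory beta subunit of these channels, and *Atp1b1*, *Atp1b2* and *Atp1b3* encode beta subunits of the sodium-potassium pump (Na,K-ATPase). They were selected by gene symbol from the 47729 genes listed for every sample. *Scn11a* was picked because it was lower in *Le-Cre* lenses, so its levels are given as a description without a test. The other 5 genes were taken from the same families.

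The mature lens has no blood supply of its own, and the clarity of its fibre cells depends on a steady balance of ions and water. Na,K-ATPase pairs a catalytic alpha subunit with a beta subunit that is needed for folding and delivery of the pump to the membrane, and small FXYD proteins tune its activity. Voltage-gated sodium channels carry the fast inward current of action potentials in neurons and muscle, and Nav1.9 is best known from pain-sensing neurons.

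Mice of 3 lines on the *FVB/N* background were compared at postnatal day 0. Each line gave 3 pools, and a pool held 6 lenses from 3 mice. *FVB/N* mice were wild type. *P0-3.9GFPCre* and *Le-Cre* mice were hemizygous for a transgene in which the *Pax6* P0 promoter drives CRE and GFP in the lens placode and surrounding head ectoderm. No floxed allele was named in the labels, and *Le-Cre* comes from 1 founder line, so a comparison with *FVB/N* covers the transgene, its product and its insertion site together. Whole lenses hold epithelium and fibre cells, so fewer cells of a type and less RNA per cell cannot be told apart.

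The pools held between 20670968 and 28098059 estimated counts, and crystallin genes took 39.1% to 43.0% of them. All 10 lens fibre markers and all 6 lens epithelium markers examined were present in every pool. Of 5 markers of cornea and surface epithelium 0 passed the filter on low counts, and their sum reached at most 0.317 CPM. Of these, *Krt12* and *Krt14* were at 0 in all 9 pools. Other RNA from outside the lens was present. The 5 endothelium markers summed to 56.7 to 105 CPM and the 5 erythroid markers to 41.7 to 120 CPM, with all lines overlapping. Of 5 glia markers 4 passed the filter on low counts, *Sox10* was at 0 in every pool, and their sum ranged from 9.14 to 14.0 CPM with all lines overlapping. Relative to *FVB/N*, 10 of 15557 tested genes (0.0643%) passed the cutoff in *Le-Cre* with edgeR's quasi-likelihood test. The cutoff asked for a change of 1.5-fold or more and an adjusted p no higher than 0.05. None passed it in *P0-3.9GFPCre* (0.0%) or between the transgenic lines (0.0%). In these last comparisons 1060 and 1226 genes had an unadjusted p below 0.05, and DESeq2 without a prior called 4 and 38. The pools also differed in RNA from the Y chromosome (*Uty*, *Kdm5d*, *Ddx3y* and *Eif2s3y*), and the sex of the mice was not given in the labels.

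The stretches just upstream of the start sites differed between the channel gene that was lower in *Le-Cre* and the most abundant pump subunits, and 3 of them are shown for that reason. Each is the 250 bases before the RefSeq start on GRCm38.p6, printed 5′ to 3′ on the gene's own strand, with every CG dinucleotide in capitals. RefSeq windows were found for 4 of the 6 genes, and *Scn3b* and *Atp1b2* had no entry. *Atp1b3* and *Scn8a* had 2 windows each, and for *Atp1b3* the one farther upstream is printed. The windows lie at chr9:119825457-119825706 for *Scn11a*, chr9:96364432-96364681 for *Atp1b3* and chr1:164458356-164458605 for *Atp1b1*, all on the minus strand.
Scn11a: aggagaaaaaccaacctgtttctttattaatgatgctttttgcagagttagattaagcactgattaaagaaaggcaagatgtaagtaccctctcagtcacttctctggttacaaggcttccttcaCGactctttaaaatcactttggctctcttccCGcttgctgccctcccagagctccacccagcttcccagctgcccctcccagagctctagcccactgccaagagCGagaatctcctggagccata
Atp1b3: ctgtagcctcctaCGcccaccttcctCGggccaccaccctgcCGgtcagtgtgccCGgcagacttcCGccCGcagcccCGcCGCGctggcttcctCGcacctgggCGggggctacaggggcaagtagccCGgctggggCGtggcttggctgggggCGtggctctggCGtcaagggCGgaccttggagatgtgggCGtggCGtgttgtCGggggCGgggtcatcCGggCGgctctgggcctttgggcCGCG
Atp1b1: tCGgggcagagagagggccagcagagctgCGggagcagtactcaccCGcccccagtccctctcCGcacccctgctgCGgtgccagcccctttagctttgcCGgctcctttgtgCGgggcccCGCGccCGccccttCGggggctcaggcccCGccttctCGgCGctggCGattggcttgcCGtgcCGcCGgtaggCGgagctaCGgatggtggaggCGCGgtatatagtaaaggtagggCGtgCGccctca

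The *Scn11a* window held 3 CG dinucleotides at a GC content of 48%, while the printed *Atp1b3* window and the *Atp1b1* window held 24 each at 73.6% and 70.4%. Over 32851 such windows of all genes the median was 6 CG dinucleotides and 52.4% GC. The letters GGGCGG, read on either strand, occurred 5 times in the printed *Atp1b3* window, 2 times for *Atp1b1* and not in the *Scn11a* window, and 32.74% of all windows held them. The second *Atp1b3* window, at chr9:96363716-96363965, held none of these and had 35 CG dinucleotides at 76.8% GC. CCAAT, also read on either strand, occurred once, in the *Atp1b1* window, where the printed strand reads ATTGG (33.85% of all windows). TATAAA, read in the same way, occurred in none of the 3 (12.37% of all windows). The *Scn8a* windows held 30 CG dinucleotides at 68% GC and 9 at 53.2% GC, with no GGGCGG in either. These matches describe the letters in the windows and are not binding sites.

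*Scn11a* lies on chromosome 9 from 119753759 to 119825456 on the minus strand (GRCm38, GENCODE M21). It reached 10.6, 13.1 and 11.4 CPM (counts scaled to library size) in the *FVB/N* pools, 8.43, 11.2 and 6.51 CPM in the *P0-3.9GFPCre* pools, and 5.83, 7.72 and 6.02 CPM in the *Le-Cre* pools. Every *Le-Cre* pool was below every *FVB/N* pool, and the *P0-3.9GFPCre* pools overlapped both lines. The means were 11.7 ± 1.25, 8.71 ± 2.35 and 6.52 ± 1.04 CPM (SD, n = 3). These correspond to log2 fold changes of −0.84 (SE 0.19) for *Le-Cre* and −0.43 (SE 0.19) for *P0-3.9GFPCre*, both relative to *FVB/N*, and −0.41 (SE 0.19) between the transgenic lines. The first 2 differences share the *FVB/N* pools, and the first is the one for which the gene was chosen. Among all tested genes, 13.5% had *Le-Cre* and *FVB/N* pools that did not overlap, and 7.03% did so with *Le-Cre* lower.

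The *Scn11a* level rests on 133 to 304 reads per pool. The gene had a single transcript in the deposited tables, its effective length (the number of positions at which a read could start) stayed at 5787 bases, and no 51-base stretch of it occurs in another annotated gene. Its TPM (a level per length, scaled to the same sum in every pool) was therefore a plain rescaling of its counts, at 1.94, 2.43 and 2 in *FVB/N*, 1.65, 2.10 and 1.22 in *P0-3.9GFPCre*, and 1.07, 1.52 and 1.07 in *Le-Cre*. *Scn11a* was not among the 10 genes that passed the cutoff with edgeR. Of 19 ways of fitting *Le-Cre* against *FVB/N*, it passed in 2, DESeq2 without a prior and edgeR without a filter on low counts. With the normal prior of DESeq2 it did not pass, at a log2 fold change of −0.49. The study, which used DESeq2, lists it as lower in *Le-Cre*. Because the gene was picked for this difference, none of these outcomes counts as a test of it.

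**Figure D1:**
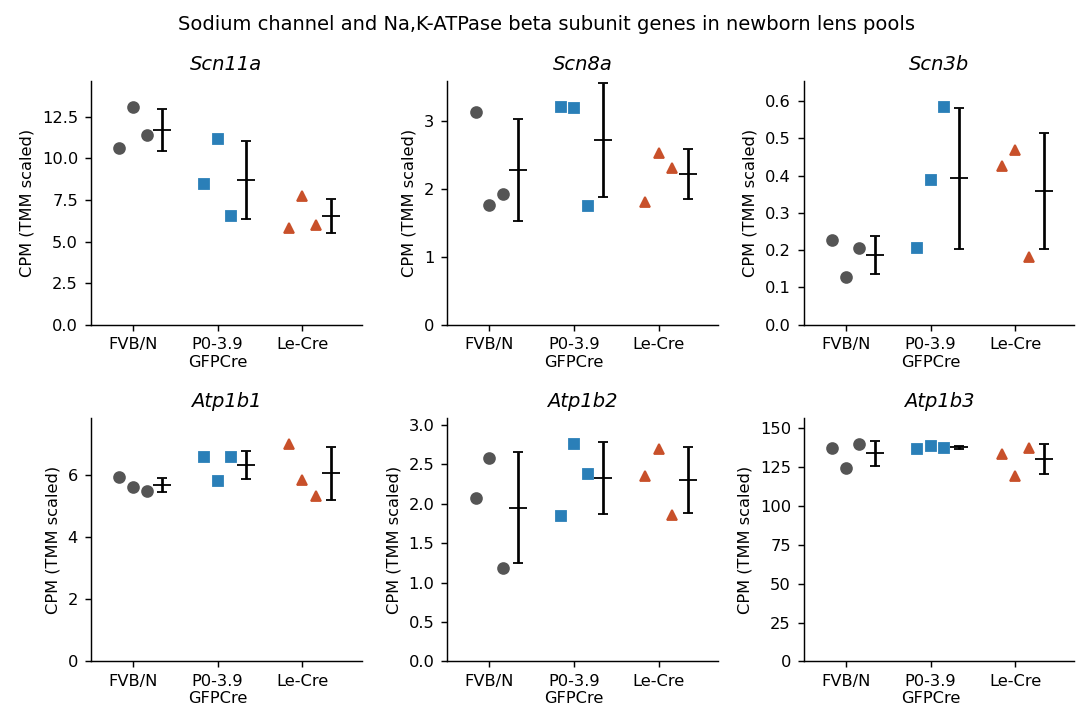
Level of each of the 6 genes in CPM (linear axes from 0) in the 3 pools of each line, with the mean and SD beside the points. For *Scn11a*, which was picked for being lower in *Le-Cre*, all *Le-Cre* pools (5.83 to 7.72 CPM) lie below all *FVB/N* pools (10.6 to 13.1 CPM). The same holds for 7.03% of all tested genes.

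The Y-linked RNA of the pools was ordered much like their *Scn11a* level. The 4 Y-linked genes summed to 132, 194 and 126 CPM in the *FVB/N* pools, 53.9, 135 and 1.66 CPM in those of *P0-3.9GFPCre*, and 1.53, 71.9 and 0.633 CPM in those of *Le-Cre*. In each line replicate 2 had both the most Y-linked RNA and the most *Scn11a*. *P0-3.9GFPCre* replicate 3, with almost no Y-linked RNA, had 6.51 CPM of *Scn11a*, inside the *Le-Cre* range, and *P0-3.9GFPCre* replicate 2 had 11.2 CPM, inside the *FVB/N* range. When the log2 Y-linked level was added to the fit as a covariate, the log2 fold change of *Scn11a* was −0.42 for *Le-Cre* and −0.23 for *P0-3.9GFPCre* relative to *FVB/N*, and −0.19 between the transgenic lines. No *Le-Cre* pool had as much Y-linked RNA as any *FVB/N* pool, so line and Y-linked level cannot be told apart between these lines. The *P0-3.9GFPCre* pools, at 1.66 to 135 CPM, overlapped both other lines, and the part of Y-linked RNA in their comparisons was not tested.

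**Figure D2:**
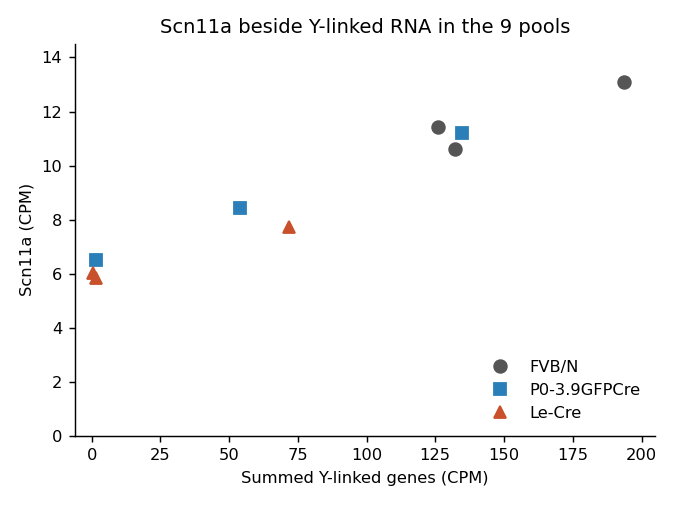
*Scn11a* in CPM against the summed CPM of 4 Y-linked genes, 1 point per pool and 1 symbol per line (linear axes). The 3 pools with under 2 CPM of Y-linked RNA hold 5.83 to 6.51 CPM of *Scn11a*, and the *FVB/N* pools lie at the upper right.

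Markers of sensory neurons, the best known site of Nav1.9, were low but mostly detected. Of 8 such markers 4 passed the filter on low counts, *Mrgprd* had no count in any pool, *Prph* reached at most 0.172 CPM, and the highest value of any marker was 1.27 CPM, for *P2rx3*. Together they summed to 2.95 to 3.64 CPM in the *FVB/N* pools, 1.94 to 2.71 CPM in those of *P0-3.9GFPCre* and 3.59 to 3.71 CPM in those of *Le-Cre*, so that the *P0-3.9GFPCre* pools were below those of both other lines and *Le-Cre* overlapped *FVB/N*. The 6 lens epithelium markers summed to 1999.9 to 2101 CPM in the *FVB/N* pools, 1921 to 2029 CPM in those of *P0-3.9GFPCre* and 1856 to 1896 CPM in those of *Le-Cre*, where every pool was below the other lines. Most of that sum was *Col4a1*, at 1606 to 1660 CPM in the *FVB/N* pools and 1449 to 1533 CPM in those of *Le-Cre*. *Cdh1* was also lower in every *Le-Cre* pool than in *FVB/N*, whereas *Pax6*, *Foxe3*, *Gja1* and *Pdpn* overlapped. Among all tested genes, 7.03% had every *Le-Cre* pool below every *FVB/N* pool. The part of these markers in the *Scn11a* result was not tested.

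None of the tested genes beside *Scn11a* had a lower mean in *Le-Cre* than in *FVB/N*. Within 200 kb, 10 genes are annotated, 7 were in the deposited tables and 3 passed the filter on low counts. *Scn10a*, the neighbouring channel gene for Nav1.8, was at 0 in every pool. *Wdr48*, which encodes a cofactor of deubiquitinating enzymes, had a difference of 0.06 on the log2 scale (SE 0.08) between *Le-Cre* and *FVB/N*, and *Gorasp1*, which encodes a Golgi stacking protein, one of 0.13 (SE 0.09). *Csrnp1* was low, with means of 0.593 CPM in the *FVB/N* pools and 0.713 CPM in those of *Le-Cre*.

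*Scn8a* lies on chromosome 15 from 100869858 to 101045938 on the plus strand. It reached 3.14, 1.76 and 1.92 CPM in the *FVB/N* pools, 3.21, 3.20 and 1.75 CPM in those of *P0-3.9GFPCre*, and 1.81, 2.54 and 2.31 CPM in those of *Le-Cre*, from 39 to 83 reads per pool. The lines overlapped fully, and pools of 1 line differed as much as pools of different lines. The log2 fold change was −0.04 (95% interval −0.73 to 0.65) in *Le-Cre* and 0.25 (−0.44 to 0.94) in *P0-3.9GFPCre* relative to *FVB/N*, and −0.29 (−0.98 to 0.40) between the transgenic lines. The adjusted p was 0.987, 0.907 and 0.869 (edgeR's quasi-likelihood test). Each of these intervals leaves room for a change of 1.5-fold.

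Per length, *Scn8a* varied far more than in counts. Its TPM was 0.60, 0.77 and 0.36 in *FVB/N*, 1.84, 0.83 and 0.44 in *P0-3.9GFPCre*, and 0.37, 0.55 and 0.40 in *Le-Cre*, so the highest pool exceeded the lowest 5.11-fold, against 1.83-fold in CPM. The annotation gives *Scn8a* 20 transcripts of 290 to 11436 bases, and the estimated mix of these set its effective length anywhere from 1969 to 5929 bases. The lengths of *Le-Cre* (5238 to 5929 bases) lay above those of *P0-3.9GFPCre* (1969 to 4279.9 bases). The exact permutation test of this difference gave p = 0.1, the smallest value 3 pools against 3 can give (two-sided), and 1 after adjustment over 15 such tests. In all 9 pools the deposited TPM of *Scn8a* was below the lower bound of the interval deposited beside it, so these values carry an uncertainty that the point estimates do not show.

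**Figure D3:**
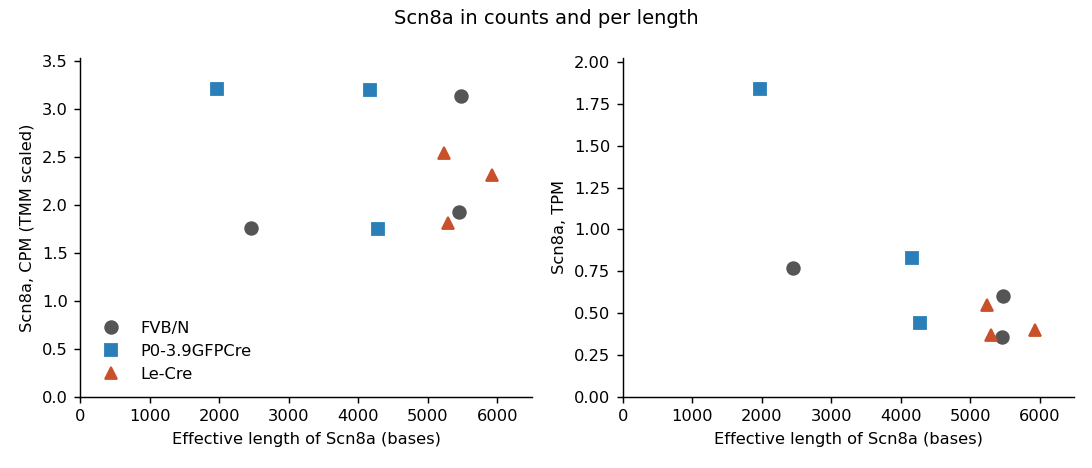
*Scn8a* in CPM (left) and in TPM (right) against its effective length in bases, 1 point per pool and 1 symbol per line (linear axes). The pool with the shortest effective length, 1969 bases, has the highest TPM, 1.84, while its 3.21 CPM are close to those of 2 other pools.

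*Scn3b*, on chromosome 9 from 40269217 to 40291618 on the plus strand, was barely detected. It had 6, 3 and 5 reads in the *FVB/N* pools, 5, 8 and 13 in the *P0-3.9GFPCre* pools, and 12, 12.03 and 4 in the *Le-Cre* pools. It did not pass the filter on low counts and was not tested. Its mean was 0.187 CPM in the *FVB/N* pools, 0.392 CPM in those of *P0-3.9GFPCre* and 0.359 CPM in those of *Le-Cre*, and the pools of all lines overlapped, so no difference was detectable at this depth. Its TPM stayed between 0.04 and 0.24, and in 8 of the 9 pools this value was below the lower bound of the interval deposited beside it.

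The remaining channel genes place these levels in context. Of 10 genes for Nav-type alpha subunits, *Scn10a* had no count. By mean TPM in *FVB/N*, *Scn11a* (2.12 ± 0.27) was highest, followed by *Scn2a*, which encodes Nav1.2 (1.46 ± 0.06), and the pools of the 2 genes did not overlap. In both transgenic lines *Scn2a* had the higher mean and the pools of the 2 genes overlapped. In *P0-3.9GFPCre* the means were 1.81 ± 0.39 TPM for *Scn2a* and 1.66 ± 0.44 TPM for *Scn11a*, and in *Le-Cre* they were 1.63 ± 0.20 and 1.22 ± 0.26 TPM (SD, n = 3). The TPM of *Scn2a* also depends on its estimated effective length, which averaged 3912 bases in *FVB/N*, 2961 bases in *P0-3.9GFPCre* and 3678 bases in *Le-Cre*. By count, the difference of *Le-Cre* from *FVB/N* was 0.02 for *Scn2a* on the log2 scale (SE 0.17, adjusted p = 0.988 by edgeR). Among the 4 tested alpha subunit genes besides *Scn11a*, 1 had an unadjusted p below 0.05 in *Le-Cre* against *FVB/N*, where 7.94% of all genes did, and none did in *P0-3.9GFPCre*, where 6.81% of all genes did. It was *Scn1a* (Nav1.1), with 1.17, 1.08 and 1.23 CPM in the *FVB/N* pools and 1.89, 1.56 and 2.44 CPM in those of *Le-Cre*. The change of 0.75 on the log2 scale (SE 0.31) had an adjusted p of 0.591 (edgeR) and did not pass.

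Among the 4 accessory beta subunit genes only *Scn2b* passed the filter. It had 3.18, 3.61 and 4.38 CPM in the *FVB/N* pools, 1.97, 2.42 and 2.60 CPM in those of *P0-3.9GFPCre*, and 2.99, 4.64 and 2.80 CPM in those of *Le-Cre*. The *P0-3.9GFPCre* pools were below all others, whereas *Le-Cre* and *FVB/N* overlapped. The log2 fold change in *P0-3.9GFPCre* relative to *FVB/N* was −0.67 (SE 0.25), with an adjusted p of 0.656 by edgeR. Pools without overlap were found for 12.0% of all genes in that comparison.

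Of the pump's beta subunit genes, 1 was far more abundant than the others and than the channel genes. *Atp1b3*, on chromosome 9 from 96332655 to 96364442 on the minus strand, reached 137, 125 and 139.9 CPM in the *FVB/N* pools, 136, 139 and 137 CPM in those of *P0-3.9GFPCre*, and 134, 119 and 137 CPM in those of *Le-Cre*. The pools of the 3 lines overlapped, and the lowest pool of all was *Le-Cre* replicate 2. The log2 fold change was −0.04 (95% interval −0.20 to 0.11) in *Le-Cre* and 0.04 (−0.11 to 0.19) in *P0-3.9GFPCre* relative to *FVB/N*, and −0.08 (−0.24 to 0.07) between the transgenic lines. The adjusted p was 0.931, 0.935 and 0.818 (edgeR). With 2864 to 3754 reads per pool, these intervals exclude a change of 1.5-fold. Of its 51-base stretches, 9.5% also occur in the gene *Gm1848*, which had at most 0.172 CPM in any pool.

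*Atp1b1*, on chromosome 1 from 164437109 to 164458355 on the minus strand, reached 5.94, 5.63 and 5.49 CPM in the *FVB/N* pools, 6.58, 5.81 and 6.60 CPM in those of *P0-3.9GFPCre*, and 7.01, 5.85 and 5.34 CPM in those of *Le-Cre*. *Le-Cre* replicates 1 and 3 were the highest and the lowest of all 9 pools. The log2 fold change was 0.10 (95% interval −0.21 to 0.40) in *Le-Cre* and 0.16 (−0.15 to 0.46) in *P0-3.9GFPCre* relative to *FVB/N*, and −0.06 (−0.36 to 0.24) between the transgenic lines, with adjusted p values of 0.921, 0.863 and 0.954 (edgeR). The end of *Atp1b1* overlaps *Nme7* on the opposite strand, and 15.7% of its 51-base stretches occur in that gene too. The kit did not keep strand, and *Nme7* averaged 14.9 CPM in the *FVB/N* pools, so part of the *Atp1b1* count depends on how shared reads were divided.

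*Atp1b2*, on chromosome 11 from 69599736 to 69605942 on the minus strand, was the least abundant of these beta subunits, with 2.08, 2.58 and 1.19 CPM in the *FVB/N* pools, 1.85, 2.76 and 2.38 CPM in those of *P0-3.9GFPCre*, and 2.35, 2.69 and 1.85 CPM in those of *Le-Cre*. The lines overlapped, and *FVB/N* replicate 3 was the lowest pool. The log2 fold change was 0.24 (95% interval −0.45 to 0.93) in *Le-Cre* and 0.26 (−0.43 to 0.94) in *P0-3.9GFPCre* relative to *FVB/N*, and −0.01 (−0.70 to 0.67) between the transgenic lines. The adjusted p was 0.907, 0.905 and 0.996 (edgeR), and with 29 to 69 reads per pool the intervals are wide.

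**Figure D4:**
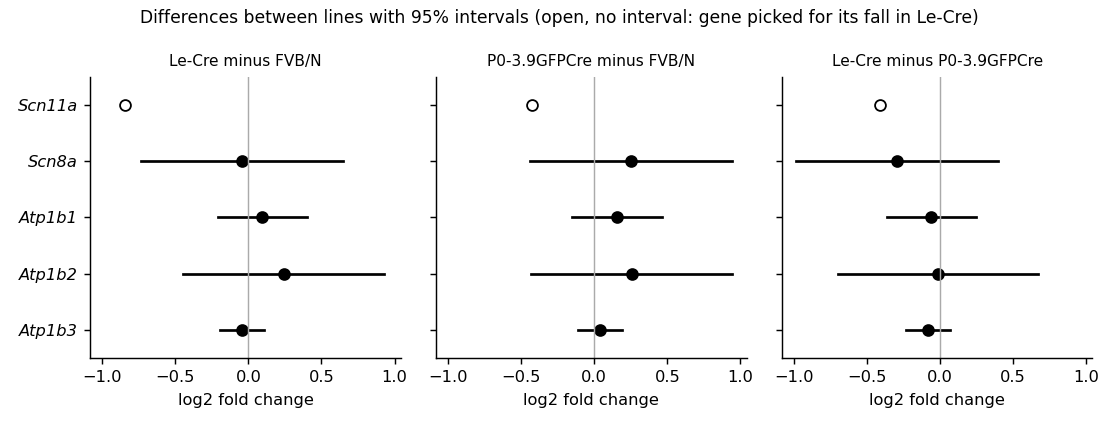
Log2 fold changes of the 5 genes that passed the filter in the 3 comparisons, with 95% intervals from edgeR (linear axis). *Scn11a* is drawn open and without an interval because it was chosen for this difference, at −0.84 in *Le-Cre*, and the intervals of the other 4 genes all include 0.

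Besides *Scn11a*, then, 4 of the genes were tested and 0 of them passed the cutoff in any comparison by edgeR or by DESeq2. Over all tested genes edgeR called 0.0643% in *Le-Cre* and 0.0% in *P0-3.9GFPCre*, both against *FVB/N*, and 0.0% between the transgenic lines. With shares this low, 0 of 4 says little about these genes. None had an unadjusted p below 0.05 by edgeR in any comparison, and their lowest was 0.260. In the same order, 7.94%, 6.81% and 7.88% of all genes had such a p. Their pools overlapped in every comparison, whereas 13.5%, 12.0% and 14.1% of all genes had pools that did not overlap.

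By mean TPM the order in *FVB/N* was *Atp1b3* (73.3 ± 3.28), *Atp1b1* (5.29 ± 0.90), *Scn11a* (2.12 ± 0.27), *Atp1b2* (1.24 ± 0.57), *Scn8a* (0.58 ± 0.21) and *Scn3b* (0.12 ± 0.08). Only the neighbours *Atp1b2* and *Scn8a* had pools that overlapped. In *P0-3.9GFPCre* the order was the same, with *Scn11a* at 1.66 ± 0.44 TPM overlapping *Atp1b2* at 1.34 ± 0.12, and *Atp1b2* overlapping *Scn8a* at 1.04 ± 0.72. In *Le-Cre*, *Scn11a* at 1.22 ± 0.26 TPM came below *Atp1b2* at 1.32 ± 0.60, and the pools of these neighbours overlapped. All of these are point estimates. Those of *Scn8a* in 9 pools and of *Scn3b* in 8 lay below their deposited intervals, so the places of both genes are uncertain.

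*Atp1b3* made up most of the beta subunit RNA per length in every line. Of the summed TPM of the 3 detected beta subunit genes it took 91.8% ± 0.26 in *FVB/N*, 90.0% ± 0.57 in *P0-3.9GFPCre* and 90.5% ± 3.28 in *Le-Cre* (SD, n = 3). *Atp1b1* took 6.61% ± 0.95, 8.45% ± 0.69 and 7.91% ± 2.59, and *Atp1b2* took 1.57% ± 0.76, 1.53% ± 0.19 and 1.62% ± 0.70. *Atp1b4* had no count. The share of *Atp1b1* was higher in every *P0-3.9GFPCre* pool (7.84% to 9.20%) than in every *FVB/N* pool (6.01% to 7.70%), and that of *Atp1b3* was lower. The exact two-sided permutation test gave p = 0.1 for both, the smallest it can give here, and 0.45 after adjustment over 9 tests. With 1 mean effective length per gene in place of the length estimated in each pool, the *Atp1b1* shares were 7.05% ± 0.44 in *FVB/N* and 7.56% ± 0.56 in *P0-3.9GFPCre*, and the difference shrank from 1.84 to 0.51 percentage points.

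**Figure D5:**
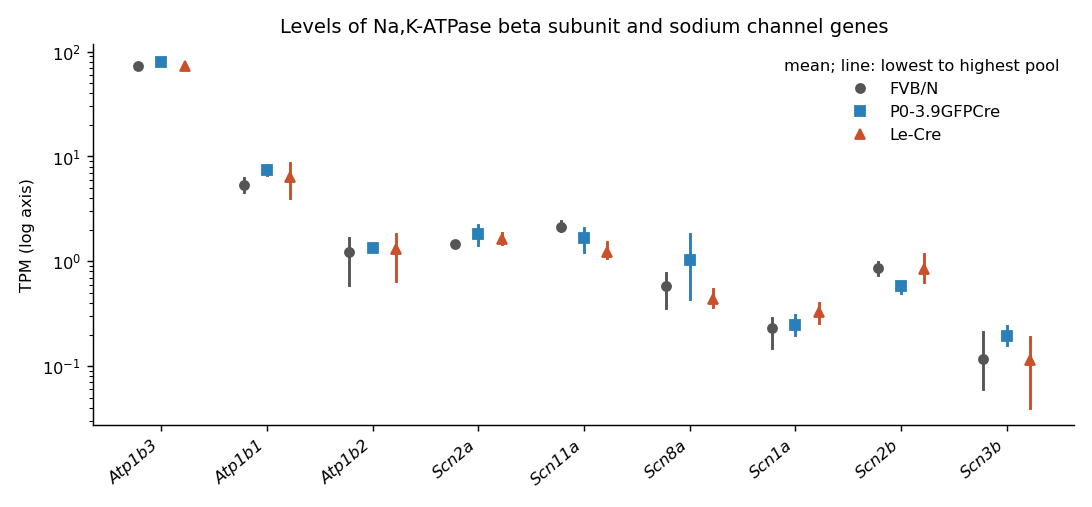
Mean TPM (log axis) of Na,K-ATPase beta subunit and sodium channel subunit genes in the 3 lines, with a line from the lowest to the highest pool. *Atp1b3* lies above 60 TPM in every line, while the channel genes lie near or below 2 TPM.

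Of the 7 FXYD genes, *Fxyd1*, *Fxyd5* and *Fxyd6* passed the filter and *Fxyd7* had no count. *Fxyd1*, which encodes phospholemman, had 3.93, 3.66 and 4.01 CPM in the *FVB/N* pools, 3.21, 2.96 and 2.69 CPM in those of *P0-3.9GFPCre*, and 2.88, 2.89 and 2.67 CPM in those of *Le-Cre*. All pools of both transgenic lines were below those of *FVB/N*, which the 2 comparisons share, and 13.5% of all genes did not overlap between *Le-Cre* and *FVB/N* and 12.0% between *P0-3.9GFPCre* and *FVB/N*. The log2 fold changes were −0.46 (SE 0.17) and −0.39 (SE 0.17) for *Le-Cre* and *P0-3.9GFPCre*, with adjusted p values of 0.544 and 0.721 (edgeR), and neither passed. *Fxyd5* and *Fxyd6* had log2 fold changes of 0.23 (SE 0.76) and −0.09 (SE 0.30) in *Le-Cre*.

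Over a wider list of 78 sodium transport genes, which includes the 6 genes above, 51 besides *Scn11a* passed the filter. Between *Le-Cre* and *FVB/N* 0 of them passed the cutoff, 3 were higher and 4 lower at an unadjusted p below 0.05 (7.94% of all tested genes had such a p), and the median log2 fold change was 0.01 against 0.00 over all tested genes. In *P0-3.9GFPCre* 0 passed, with 1 higher and 3 lower at that threshold (6.81% of all tested genes), and between the transgenic lines 0 passed, with 3 higher and 2 lower (7.88% of all tested genes). Among the partners of the channels, *Ank3*, which encodes the ankyrin that anchors sodium channels, averaged 123 CPM in the *FVB/N* pools and 97.3 CPM in those of *Le-Cre*, or −0.34 on the log2 scale (SE 0.09, adjusted p = 0.306 by edgeR). *Ank2*, a related ankyrin, had a log2 fold change of −0.12 (SE 0.05). Among cation-coupled transporters, *Slc4a4*, a sodium bicarbonate cotransporter, had one of 0.29 (SE 0.09, adjusted p = 0.451), *Slc12a4*, a potassium chloride cotransporter, one of 0.32 (SE 0.15) and *Slc4a8* one of 0.47 (SE 0.23). Of the kinases that act on pumps and transporters, *Stk39* had 0.16 (SE 0.06) and *Oxsr1* 0.00 (SE 0.07) in *Le-Cre*, and *Src* had 0.37 (SE 0.11) in *P0-3.9GFPCre*. *Atp4a* of the H,K-ATPase and the channel genes *Asic1*, *Asic2* and *Scnn1a* were at means between 0.275 and 1.20 CPM, and their unadjusted p values were above 0.05.

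The genes whose log2 CPM followed each of these genes most closely over the 9 pools were identified among the 15557 tested, by Pearson correlation and as a description only. For *Scn11a* they included *Antxr1* (r = 0.98) and *Bmf* (r = 0.96). *Antxr1* averaged 102 CPM in the *FVB/N* pools, 89.3 CPM in those of *P0-3.9GFPCre* and 79.7 CPM in those of *Le-Cre*, the same order as *Scn11a* with a smaller spread. For *Scn8a* they were *Nhlrc3*, *Zfp157* and *Elp4* (r from 0.93 to 0.96), for *Atp1b1* *Gm37767*, *Map2k3os* and *Ltbr* (0.91 to 0.94), for *Atp1b2* *Relb*, *Sh3tc2* and *B3gnt3* (0.95 to 0.98), and for *Atp1b3* *Gm43078*, *Psmc5* and *Rfx2* (each 0.96). Each r rests on 9 pools that share lines and a common scaling, and each came from a search over all tested genes.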

How the data were processed

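RNA from 9 pools of whole newborn lenses (3 lines, 3 pools each) was measured by polyA RNA-Seq with single-end reads of 51 bases. According to the study's methods and the submitters' processing notes, the authors trimmed reads with Trimmomatic 0.36, aligned them to GRCm38 by GSNAP and estimated gene abundance with RSEM 1.3.0. The gene annotation was not given in the sources used here. The deposited expected counts (estimated counts per gene, from RSEM, made by the authors) were rounded to whole numbers here. The authors' TPM values came with effective lengths and interval bounds.

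The 6 genes and all gene lists were chosen with earlier results of these data known. Counts of all 9 pools were fitted together with edgeR 4.0.16 (R 4.3.3, TMM scaling, filterByExpr, quasi-likelihood F test, Benjamini-Hochberg adjustment over 15557 genes), which was first tested on simulated data. A call needed a change of 1.5-fold or more and an adjusted p no higher than 0.05, as in the study. CPM values use the TMM scaling and are not per length. Shares of TPM and effective lengths were compared with exact two-sided permutation tests (scipy 1.17.1). The named genes are the 6 genes, every tested gene of the subunit and FXYD lists, up to 3 genes with the smallest unadjusted p in each other list, and the 3 genes most like each, some of which are not reported here. *Scn2a* was matched by its identifier. Alternatives were other scaling, filters and tools (DESeq2 1.42.0), a replicate block, a Y-linked covariate and leaving out each pool. CRE reads were not analysed here.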

Additional observations from a re-analysis of the deposited data

How the results depend on the processing

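Besides *Scn11a*, 0 of the tested genes described here passed the cutoff under any alternative in any comparison. The count over all genes in *Le-Cre* against *FVB/N*, 10 in the fit reported, was 54 with DESeq2 without a prior, 5 with a mean of at least 10 counts, 131 without a filter, 0 with the Y-linked covariate and 0 to 10 when 1 pool was left out (0 or 1 whenever it was an *FVB/N* or *Le-Cre* pool). Pools with the same number did not deviate together (mean correlation 0.03), and a replicate block gave 2. In *P0-3.9GFPCre* against *FVB/N*, 0 in the fit reported, DESeq2 gave 4 without and 1 with a prior, no filter gave 93, and leaving out 1 pool gave 0 to 14 (14 without *FVB/N* replicate 2). Between the transgenic lines, also 0, DESeq2 gave 38 and 4, no filter 123, only the compared pools 31, and leaving out 1 pool 0 to 18 (18 without *FVB/N* replicate 2). The log2 fold change of *Scn11a* in *Le-Cre*, the difference it was chosen for, was −0.49 with the normal prior of DESeq2, −0.42 with the covariate and −0.98 to −0.75 without 1 pool. The cause of these differences was not tested.

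The small log2 fold changes of the other genes changed sign in some fits. With the Y-linked covariate, *Scn8a* had 0.37 in *Le-Cre* against *FVB/N*, *Atp1b3* −0.0043 in *P0-3.9GFPCre* against *FVB/N*, and *Atp1b2* 0.079 between the transgenic lines. Leaving out 1 pool gave, in *Le-Cre* against *FVB/N*, −0.19 to 0.27 for *Scn8a*, −0.022 to 0.18 for *Atp1b1*, −0.013 to 0.49 for *Atp1b2* and −0.090 to 0.020 for *Atp1b3*. It gave −0.0012 to 0.50 for *Atp1b2* and −0.0094 to 0.073 for *Atp1b3* in *P0-3.9GFPCre* against *FVB/N*, and −0.18 to 0.022 for *Atp1b1* and −0.16 to 0.12 for *Atp1b2* between the transgenic lines.

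Differences in TPM share also changed sign, in percentage points. With 1 mean effective length per gene, *Atp1b2* had 0.19 in *P0-3.9GFPCre* against *FVB/N*, and *Atp1b1* and *Atp1b3* had 0.12 and −0.20 between the transgenic lines. Without 1 pool, *Atp1b2* ranged from −0.37 to 0.45 and *Atp1b3* from −3.14 to 0.08 in *Le-Cre* against *FVB/N*, and *Atp1b2* from −0.47 to 0.27 in *P0-3.9GFPCre* against *FVB/N*. Between the transgenic lines the ranges were −1.71 to 0.85 for *Atp1b1*, −0.16 to 0.50 for *Atp1b2* and −1.35 to 1.87 for *Atp1b3*. For effective length without 1 pool, *Atp1b1* ranged from −215 to 36.2 bases, *Atp1b2* from −22.1 to 745 and *Atp1b3* from −4.75 to 13.8 in *Le-Cre* against *FVB/N*. In *P0-3.9GFPCre* against *FVB/N*, *Scn3b* ranged from −871 to 789 bases, *Atp1b2* from −44.5 to 334 and *Atp1b3* from −14.7 to 24.4. Between the transgenic lines *Atp1b1* ranged from −4.14 to 247 bases, *Atp1b2* from −206 to 561 and *Atp1b3* from −19.1 to 20.1. Depth limits *Scn3b*, *Scn8a* and *Atp1b2* most.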
